A study of Microtus ochrogaster with 40 samples.

Results

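Pdyn (ENSMOCG00000022680) and Penk (ENSMOCG00000005168) are 2 of the 19130 genes listed for single-nucleus RNA libraries from the nucleus accumbens of prairie voles, and both were followed across all neuron and glia classes of 40 animals. They were chosen by name as the precursors of the dynorphin and enkephalin peptides. Each library held nuclei of tissue dissected from 1 animal, isolated separately on an iodixanol gradient and run on 10X Genomics droplets. Animals had spent 16 days with a partner of the opposite sex (mate) or of the same sex (peer), which gave 22 mates (11 females and 11 males) and 18 peers (8 females and 10 males). The labels used here name no age, strain, genotype or further treatment. The partners are not named either, so animals that lived together may be among the 40 and may not be independent.

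Pdyn encodes a protein that is cut into dynorphins, which act mainly on the kappa receptor (Oprk1). Penk encodes the precursor of Met- and Leu-enkephalin, which act on the delta and mu receptors (Oprd1 and Oprm1). In rodent striatum, medium spiny neurons with the D1 dopamine receptor are the classic dynorphin and substance P neurons, and those with the D2 receptor are the classic enkephalin neurons. Both peptides are released within the nucleus accumbens and from spiny neuron axons in the ventral pallidum and midbrain.

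After filtering, 178387 nuclei remained, from 1767 to 7666 per library, with 2949183 to 13509387 UMIs per library. They contained 56154 Pdyn UMIs and 552895 Penk UMIs. Median UMIs per nucleus ran from 928 to 2201 in 39 libraries and were 657 in male mate 2, which stood apart. Of 171078 distinct barcodes, 21545 (12.6%) occurred in at least 2 libraries, and the pair of libraries that shared most had 100 in common, 2.22% of the smaller one. Classes were named from marker genes that did not include Pdyn or Penk, and neither gene was among the variable genes used for clustering. The D1 class had 4 of 6 markers at least 1 log2 unit above other nuclei, with DRD1A, the D1 receptor, at 954.3 UMIs per 1000000 UMIs of the class (CPM) against 132.8 CPM elsewhere, while its listed marker Eya1 was lower there (1.29 against 22.8 CPM). In the D2 class the adenosine receptor gene Adora2a was at 954.6 against 25.1 CPM and DRD2 at 359.6 against 12.7 CPM. Another class was named from the list of eccentric medium spiny neuron markers, with Otof at 219.9 against 15.9 CPM, Foxp2 at 582.6 against 22.8 CPM and 2 further markers. It pools a Foxp2 cluster of 9623 nuclei with a Col14a1 cluster of 6782, and spiny neuron genes were lower in the second, to different degrees. There Ppp1r1b, a dopamine signalling gene of spiny neurons, stood at 278.2 CPM against 1239.7 in the Foxp2 cluster and 369.1 in astrocytes, Pde10a at 77.2 against 500.1 CPM and Tac1 at 188.7 against 2719.5 CPM. Rgs9 stood there at 456.9 against 1351.8 CPM and DRD1A at 402.9 against 974.1 CPM, with 66.2 and 20.7 CPM in astrocytes. The name eccentric stands below for that marker profile. For the Col14a1 cluster the levels of Ppp1r1b, Pde10a and Tac1 go against the spiny part of the name, while Rgs9 and DRD1A were intermediate. Because classes come from the same nuclei, levels over classes are given as descriptions, without a test.

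Pdyn was concentrated in D1 neurons. The D1 class made up 19.1% of nuclei and held 84.5% of all Pdyn UMIs. Its level per animal was 342.9 CPM at the lowest (male mate 2), 624.3 CPM at the median and 1126.1 CPM at the highest (male peer 8). Even the lowest animal lay above every animal's level in any other named class. Eccentric neurons came next, with 32.9, 104.5 and 165.2 CPM as lowest, median and highest of 40 animals, and they held 5.38% of Pdyn UMIs. D1 exceeded eccentric neurons in 40 of 40 animals, by a median of 6.01-fold. In D2 neurons Pdyn ran from 7.02 through a median of 19 to 39.7 CPM. D1 exceeded D2 in 40 of 40 animals, by a median of 30.9-fold, from 8.67-fold in male mate 2 to 96-fold.

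**Figure D1:**
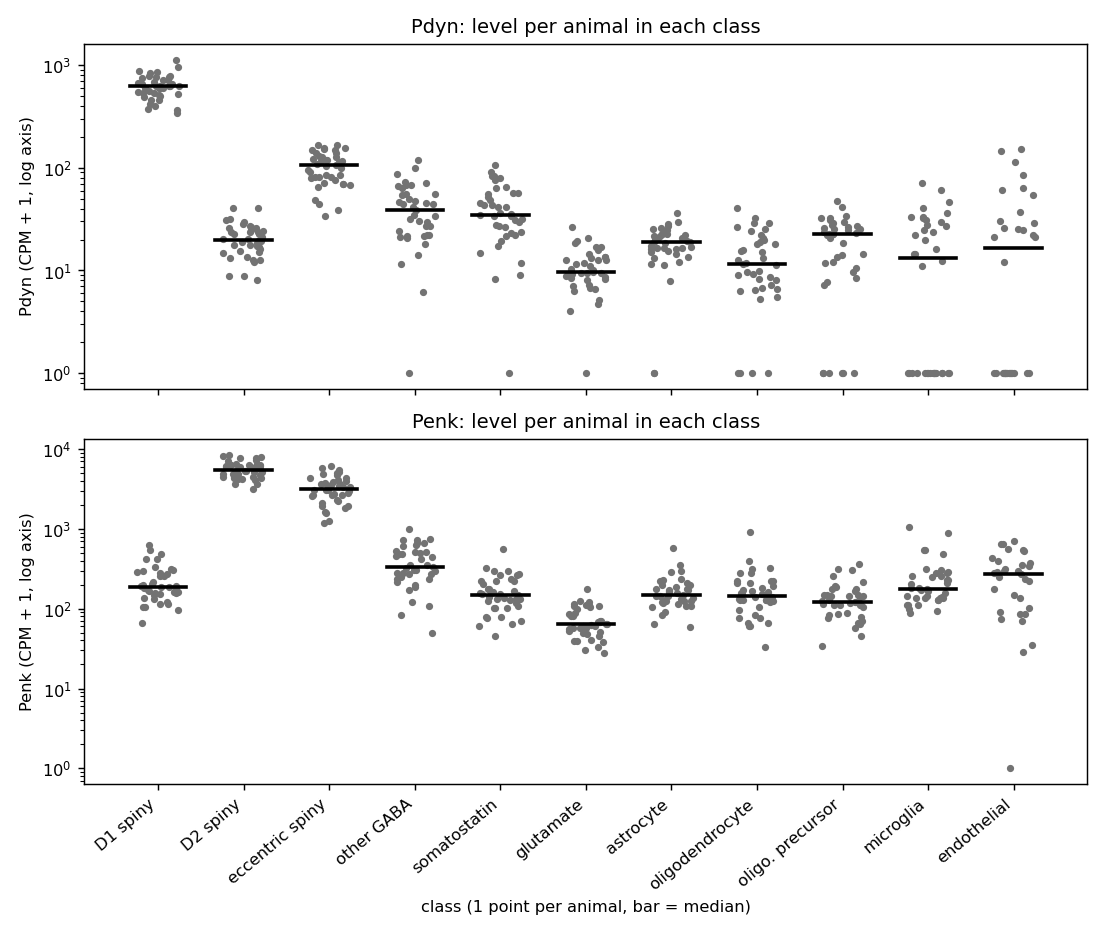
Level of Pdyn (top) and Penk (bottom) per animal in each class, in CPM + 1 on a log axis. Each point is 1 animal with at least 20 nuclei of the class and each bar is the median. Pdyn stands highest in D1 neurons (median 624.3 CPM) and Penk in D2 (5456.8 CPM) and eccentric neurons (3200.1 CPM).

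Below these, the medians of Pdyn fell in the order other GABA neurons (37.9 CPM), somatostatin interneurons (33.7 CPM), oligodendrocyte precursors (21.5 CPM), D2 neurons (19 CPM), astrocytes (17.8 CPM), endothelial cells (15.7 CPM), microglia (12.3 CPM), oligodendrocytes (10.7 CPM), glutamate neurons (8.66 CPM) and cholinergic interneurons (0 CPM). The ranges over animals of all neighbours in this order overlapped, as did those of eccentric and other GABA neurons. Within animals, Pdyn in D2 neurons exceeded oligodendrocytes in 29 of 40, by a median of 1.52-fold, and microglia in 23 of 38. It exceeded astrocytes in 25 of 39, by a median of 1.08-fold, and glutamate neurons in 34 of 40, by 2.03-fold. In CPM, Pdyn in D2 neurons was thus close to its level in astrocytes and overlapped in range with the other glia. Mean Pdyn UMIs per nucleus were 0.0397 in D2 neurons, 0.0152 in astrocytes, 0.0102 in microglia and 0.00989 in oligodendrocytes. Median depth was 1947 UMIs in D2 neurons, 667 in oligodendrocytes and 782 in astrocytes, and the part of depth was not tested. Eccentric neurons exceeded oligodendrocytes in 40 of 40, by a median of 9.53-fold. Somatostatin interneurons exceeded glutamate neurons in 36 of 40 animals, by a median of 3.3-fold.

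The somatostatin class was uneven. A cluster of 1164 nuclei led by Npy, Nos1 and Sst, the profile of nitric oxide synthase interneurons, had Pdyn at 134.3 CPM over its summed counts. The other cluster of that class, 6865 nuclei led by Grik1, Kcnc2 and Sst, had 23 CPM. The first exceeded the second in 26 of the 28 animals with enough nuclei of both, by a median of 5.98-fold, and lay below D1 in 28 of 28. The D1 neuron genes DRD1A (175.6 against 46.5 CPM) and Tac1 (310.7 against 220.9 CPM) were also higher in the Npy cluster. So was the general spiny neuron gene Rgs9 (105.2 against 61.1 CPM). The part of spiny neuron RNA in the Pdyn level was not tested. Penk did not follow this pattern and was higher in the Npy cluster in 5 of 28 animals.

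Penk was divided between D2 and eccentric neurons. The D2 class, 17.8% of nuclei, held 71.3% of Penk UMIs, and eccentric neurons, 9.2% of nuclei, held 18.7%. The D2 level was 3135.1 CPM at the lowest (female mate 2), 5456.8 CPM at the median and 8457.3 CPM at the highest (female mate 8). The eccentric level ran from 1166.5 CPM (male mate 2) through 3200.1 to 6152.3 CPM (female mate 4), so the ranges of the classes overlapped. Within animals, D2 was nevertheless the higher of the pair in 39 of 40, by a median of 1.82-fold, the exception being male mate 1 with a ratio of 0.905.

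All other named classes were far lower for Penk. Their medians were 328.8 CPM in other GABA neurons, 274.3 in endothelial cells, 186.1 in D1 neurons, 177.6 in microglia, 148.7 in somatostatin interneurons, 146.9 in astrocytes, 142.6 in oligodendrocytes, 121.9 in oligodendrocyte precursors, 78.3 in cholinergic interneurons and 63.7 in glutamate neurons. Neighbours in this order overlapped in range. D2 exceeded D1 in 40 of 40 animals, by a median of 28.1-fold, lowest in male mate 2 (5.75-fold) and 68.3-fold at the highest. Eccentric neurons exceeded D1 in 40 of 40, by a median of 16-fold. The other GABA class, led by Vip, Kit and Crabp1, exceeded glutamate neurons in 38 of 39 animals, by a median of 5.42-fold, and oligodendrocytes in 32 of 39.

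Nuclei of the unnamed clusters, 10.8% of all, held 3.57% of Penk and 3.63% of Pdyn UMIs and are not in these orders. Their Penk ran from 188.8 through 656.4 to 2567.8 CPM and their Pdyn from 37.6 through 71.1 to 175.4 CPM. A cluster of 3919 nuclei held 2.72% of all Penk UMIs. It met no marker list and was led by mitochondrial transcripts such as ND4L together with Gng7 and Hpca. There Penk ran from 1181.1 through 2330.7 to 5240.9 CPM over 40 animals and Pdyn from 74.8 through 235.0 to 422.7 CPM, a median above that of Pdyn in eccentric neurons. Ppp1r1b stood at 3238.4, DRD1A at 338.2 and DRD2 at 136.9 CPM in that cluster, and its median depth was 855 UMIs.

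Spread between animals was smaller where each gene was high. The coefficient of variation over 40 animals was 26.8% for Pdyn in D1, 23.7% for Penk in D2, 37.7% for Penk in eccentric neurons and 55.7% for Penk in D1. Detection gave the same split. With each nucleus thinned to 1000 UMIs, 3284 of 34059 D1 and 2540 of 31771 D2 nuclei were left out as too shallow. Oligodendrocytes lost 10045 of 12035 nuclei, so their thinned shares rest on the deepest nuclei of the class. A Pdyn UMI was then found in 39.2% of D1 nuclei (Wilson 95% interval 38.7 to 39.8), 8.83% of eccentric, 1.52% of D2 and 0.905% of oligodendrocyte nuclei (0.573 to 1.43). Without thinning, the D1 share was 56.4% at a median of 2031 UMIs and the oligodendrocyte share 0.922% at a median of 667 UMIs. A Penk UMI was found after thinning in 80.3% of D2 nuclei (79.8 to 80.8), 67.4% of eccentric, 9.76% of D1 and 9.35% of oligodendrocyte nuclei (8.14 to 10.7). The corresponding shares without thinning were 83%, 69.1%, 17.2% and 8.66%. These intervals cover counting error only.

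Neither gene was even within its main class. A finer clustering split the D1 class mainly into 3 clusters. Pdyn was highest in the cluster led by Reln and Tac1 (13476 nuclei), with 463.0, 839.8 and 1495.9 CPM as lowest, median and highest animal. It was lower in the cluster led by Col24a1, Hcrtr2 and the kappa receptor gene Oprk1 (10155 nuclei), with 255.1, 395.4 and 795.8 CPM, and in the cluster led by Dlk1 and Drd3 (11144 nuclei), with 285.5, 462.4 and 1083.3 CPM. The last cluster met too few D1 markers to be named, although 10132 of its nuclei belonged to the D1 class. The Reln cluster exceeded the Col24a1 cluster in 39 of 39 animals, by a median of 2.05-fold, and the Dlk1 cluster in 40 of 40, by a median of 1.79-fold.

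The D2 class held a cluster with little Penk. In the main clustering, 5204 D2 nuclei led by Cpne7 and Col6a2 had DRD2 at 389.2 and Adora2a at 808.0 CPM, but Penk at 474.1 CPM over summed counts, against 6915.6 CPM in the other 26567 D2 nuclei, where DRD2 was at 353.7 and Adora2a at 983.5 CPM. The larger cluster was higher in 40 of 40 animals, by a median of 16.1-fold. The Cpne7 cluster also had Tac1, the substance P precursor, at 1285.2 CPM against 51.1 CPM in the larger D2 cluster, and its Pdyn stood at 22.2 CPM. At the finer clustering the larger cluster fell into 3, with Penk medians of 8092.0 CPM in the one led by Penk and Adora2a, 7012.7 CPM in one led by Nts, the neurotensin precursor, and 4496.2 CPM in one led by Adora2a, Npffr2 and Col24a1. The Nts cluster exceeded the Npffr2 cluster in 40 of 40 animals, by a median of 1.53-fold, and the first exceeded the Nts cluster in 33 of 38, by a median of 1.16-fold. The clusters differ in depth, with median UMIs per nucleus of 2871, 1957 and 1600 in the order of their Penk level, and the part of depth in this order was not tested. The Cpne7 cluster kept a median of 425.9 CPM (range 89.8 to 1758.9).

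The Foxp2 and Col14a1 clusters pooled as eccentric neurons, of which the second had low Ppp1r1b, Pde10a and Tac1, had overlapping levels of Pdyn and of Penk. Penk stood at 3855.2 CPM in the cluster led by Foxp2, Otof and Tac2 and at 3049.0 CPM in that led by Col14a1 and Shisa8, and the first was higher in 25 of 40 animals. Pdyn stood at 105.8 and 106.1 CPM, with the first higher in 20 of 40. In the Foxp2 cluster DRD1A was at 974.1 CPM and DRD2 at 6.87 CPM, so high Penk occurred there beside the D1 receptor. In the Col14a1 cluster DRD1A was at 402.9 CPM. Animal medians of Penk were 3325.9 CPM in the Foxp2 and 3176.3 CPM in the Col14a1 cluster, and the larger D2 cluster exceeded the Foxp2 cluster in 40 of 40 animals, by a median of 2.08-fold.

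**Figure D2:**
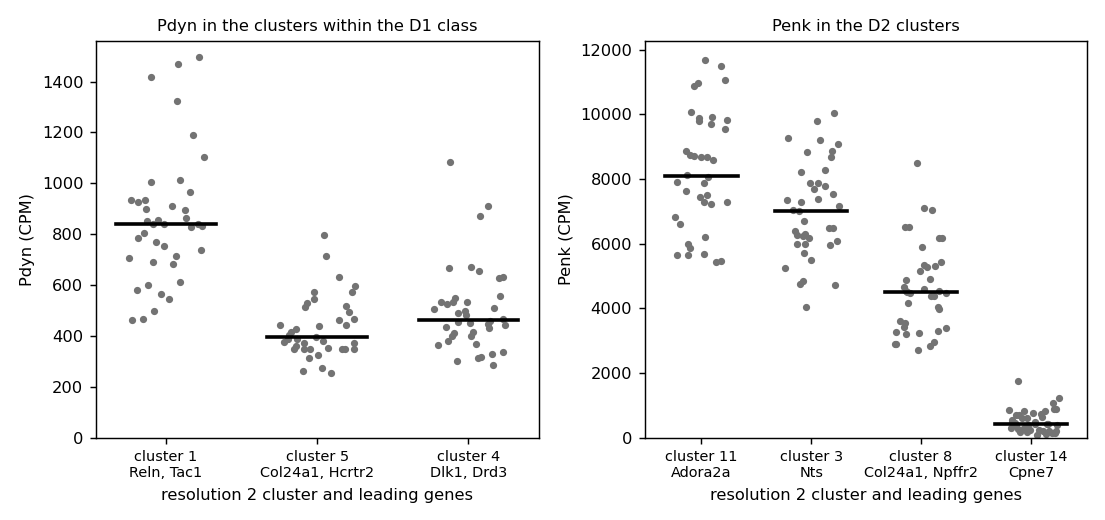
Level per animal (CPM, linear axis) of Pdyn in the 3 finer clusters within the D1 class and of Penk in the 4 finer clusters of the D2 class. Points are animals and bars medians. Pdyn is highest in the Reln and Tac1 cluster (median 839.8 CPM), and Penk is lowest in the Cpne7 cluster (425.9 CPM).

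Among D1, D2, eccentric and glutamate neurons, both genes in 1 nucleus were most frequent in eccentric neurons. Other classes and the unnamed clusters were not compared in this way. After thinning, 6.58% of eccentric nuclei had UMIs of both, against 3.14% of D1 and 0.842% of D2 nuclei. Among eccentric nuclei, Penk was found in 74.5% of those with Pdyn and 66.7% of those without, and its share was higher among Pdyn-positive nuclei in 25 of 34 animals. By cluster the shares were 78.6% against 66.4% in the Foxp2 cluster, higher in 25 of 30 animals, and 64.6% against 67.6% in the Col14a1 cluster, higher in 7 of 14. In D1 neurons the order was the opposite: 8.01% of Pdyn-positive and 10.9% of Pdyn-negative nuclei had Penk, and the Pdyn-positive share was the higher in 4 of 40 animals. In D2 neurons 55.3% of the 445 Pdyn-positive nuclei had Penk against 80.7% of the rest, and the Pdyn-positive share was higher in 2 of 23 animals. The part of droplets that held material of both kinds of neuron was not tested.

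Penk in the D1 class rested on few nuclei. Of 34059 D1 nuclei, 28216 (82.8%) had no Penk UMI, 5161 (15.2%) had 1 to 5 and 682 (2%) had at least 6. Those 682 nuclei held 56.9% of the class's Penk UMIs, at 4986.7 CPM, a level that the choice of nuclei by at least 6 UMIs itself sets high. Their Pdyn stood at 374.0 CPM against 645.7 CPM in D1 nuclei without Penk. They also had more of the D2 receptor gene DRD2 (85 against 5.18 CPM), Adora2a (193.2 against 9.23 CPM) and Gpr6 (263.8 against 59.7 CPM), and of the eccentric marker Otof (63.7 against 15.2 CPM), while DRD1A was at 649.2 against 970.7 CPM. Those D2 markers were lower than in the D2 class itself, where DRD2 stood at 359.6, Adora2a at 954.6 and Gpr6 at 1101.9 CPM. The median depth of these nuclei was 2359 UMIs against 2015. The part of joined droplets missed by the doublet call was not tested. When Pdyn and Penk were allowed among the variable genes, the median Penk level of the D1 class was 101.3 CPM in place of 186.1 CPM.

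Over the whole D1 class, Penk in CPM was above its level in glutamate neurons and overlapped that in glia. Mean Penk UMIs per nucleus without thinning were 0.521 in D1, 0.196 in glutamate neurons, 0.12 in oligodendrocytes, 0.136 in astrocytes and 0.138 in microglia. Glial nuclei were shallower, and the part of depth was not tested. The share of D1 nuclei with a Penk UMI after thinning (9.76%) compared with 5.52% in glutamate neurons (median 2476 UMIs), 9.35% in oligodendrocytes, 11.5% in astrocytes (median 782 UMIs) and 15.5% in the 161 deep enough microglia. Only 1990 of 12035 oligodendrocytes and 3350 of 17841 astrocytes were deep enough, so these shares come from the deepest glia. Penk in D1 exceeded glutamate neurons in 39 of 40 animals, by a median of 2.99-fold, and astrocytes in 31 of 39, by a median of 1.28-fold. It exceeded oligodendrocytes in 29 of 40 and microglia in 17 of 38. The part of free RNA in the D1 level was not tested. At the same depth, 0.504% of D1 nuclei had 6 to 10 Penk UMIs and 0.182% more than 10, against 0.151% and 0.0503% of oligodendrocytes and 0.0532% and 0.00484% of glutamate neurons. The shares were 0.418% and 0.217% in somatostatin interneurons, 1.96% and 0.347% in other GABA neurons and 1.86% and 1.24% in the 161 microglia. In astrocytes they were 0.299% and 0%. Without thinning, over all microglia they were 0.136% and 0.0454%, against 1.04% and 0.96% in D1 and 2.55% and 2.67% in other GABA neurons. Nuclei with many Penk UMIs were thus not particular to the D1 class.

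Glia carried both transcripts at low levels, as they did other spiny neuron genes. Relative to the level over all nuclei, Pdyn stood at 7.3% in oligodendrocytes (exact Poisson 95% interval 6.04 to 8.73), 10.7% in astrocytes, 10.7% in oligodendrocyte precursors, 9.17% in microglia and 20.1% in endothelial cells. Penk stood at 9.01% (8.55 to 9.49), 9.77%, 8.03%, 12.6% and 15.7% in the same classes. The 7 spiny neuron genes measured the same way (Ppp1r1b, Pde10a, Rgs9, Tac1, DRD1A, DRD2 and Adora2a) had medians of 8.21% in oligodendrocytes (range 3.36 to 23.4), 8.93% in astrocytes (6.44 to 41.2), 12.3% in precursors (5.91 to 22.5), 11.9% in microglia (4.68 to 25) and 22% in endothelial cells (11.4 to 42.8). These 7 genes did not share 1 level. In oligodendrocytes Rgs9 stood at 3.36% (2.96 to 3.81) and Ppp1r1b at 23.4% (22.4 to 24.5). Pdyn and Penk lay inside the range of the 7 genes in all 5 classes, but that range is wide. In glutamate neurons they were at 5.72% and 4.17%, also inside the range (2.56 to 21.3). Pdyn in D2 neurons, at 11% of the all-nuclei level, was near its level in astrocytes. Ppp1r1b was the highest of the 7 in 4 of the 5 glial and vascular classes. With doublets kept, the oligodendrocyte medians were 524.7 CPM for Penk in place of 142.6 and 35.9 CPM for Pdyn in place of 10.7. A pair of clusters with glial markers and spiny neuron genes, of 188 and 66 nuclei with Penk at 2950.3 and 3052.5 CPM, was left unnamed by a rule set after they were seen.

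**Figure D3:**
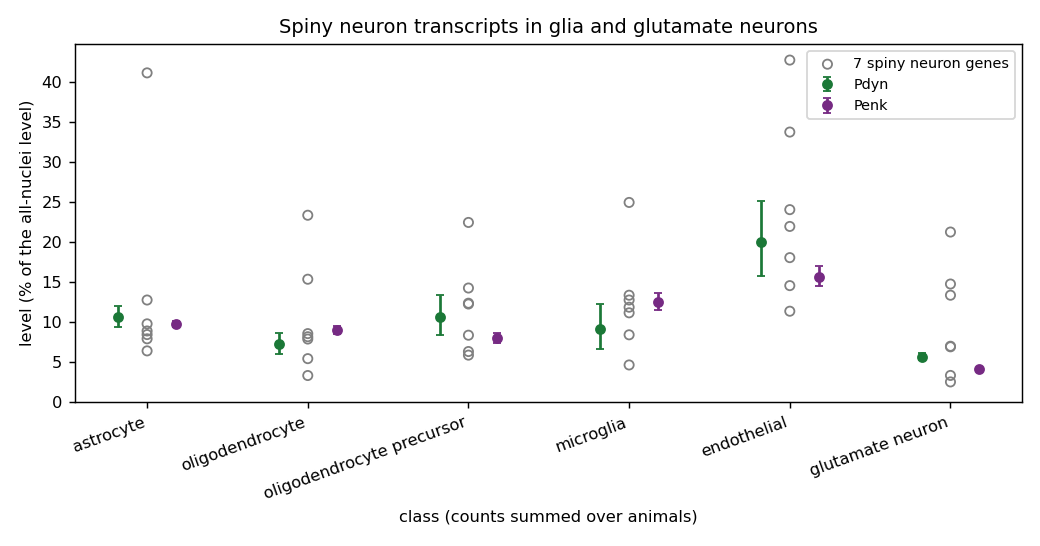
Level of Pdyn and Penk (filled, with exact Poisson 95% intervals) and of 7 spiny neuron genes (open circles) in glia, endothelial cells and glutamate neurons, as a percent of each gene's level over all nuclei, counts summed over animals. Both genes lie within the spread of the 7 genes, for example at 7.3% and 9.01% in oligodendrocytes.

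Across animals, Penk in oligodendrocytes ran from 32.5 CPM (female peer 3) through 142.6 to 920.5 CPM (male mate 2). The highest value rested on 12 Penk UMIs in 20 nuclei. Over the 40 animals it followed the all-nuclei level of Penk in rank (Spearman rho 0.432, permutation p adjusted over 7 relations 0.00985) but not in Pearson r (0.111, adjusted permutation p 0.538, and 0.0913 without the 2 animals farthest from the median). Without male mate 2, r was 0.59 (adjusted permutation p 5.60e-04). Pdyn in oligodendrocytes, from 119 UMIs in all, gave r 0.0881 and rho 0.132 (adjusted permutation p 0.588 and 0.482). Penk in D1 neurons followed Penk in oligodendrocytes of the same library, with r 0.633 and rho 0.457 (adjusted permutation p 8.40e-04 and 0.00778), and r 0.41 without the 2 farthest animals. It was not shown to follow Penk in D2 neurons (r 0.137, rho 0.192, adjusted permutation p 0.482 and 0.328). Both values of a pair come from 1 library.

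**Figure D4:**
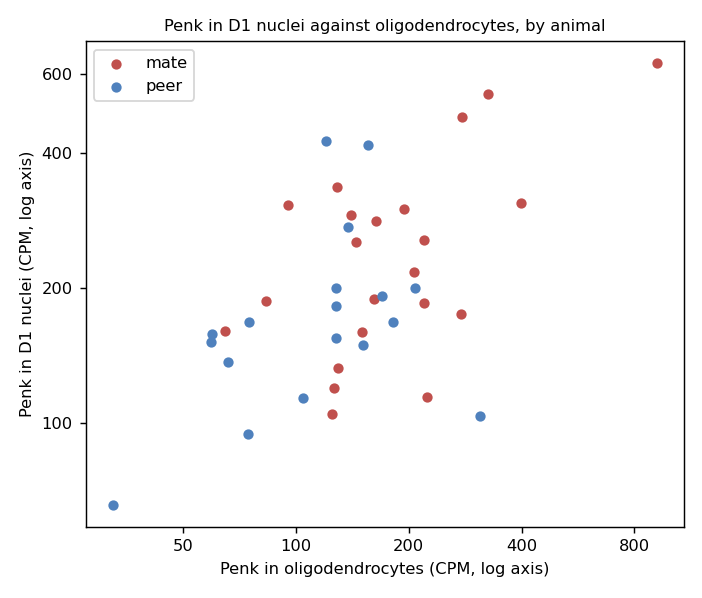
Penk in D1 nuclei against Penk in oligodendrocytes (CPM, both axes log), 1 point per animal, mates and peers in different colours. Points rise together (r 0.633 on the CPM scale), and the point farthest to the upper right, male mate 2, has 920.5 CPM in oligodendrocytes and 633.4 CPM in D1 nuclei.

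Penk over all nuclei followed the percent of nuclei in the D2 class (r 0.656, rho 0.698, adjusted permutation p 1.40e-04 for both, r 0.7 without the 2 farthest animals). Pdyn over all nuclei followed the percent in the D1 class (r 0.486, rho 0.459, adjusted permutation p 0.00479 and 0.00778, r 0.379 without the 2 farthest). The D2 class held 71.3% of Penk UMIs and the D1 class 84.5% of Pdyn UMIs. The level over all nuclei thus contains the class share, and a positive relation is largely built in for both genes. Penk in D2 and Pdyn in D1 rose together over animals (r 0.367, rho 0.451, adjusted permutation p 0.0315 and 0.00778, r 0.393 without the 2 farthest), and without male mate 2 the r of 0.322 no longer passed (adjusted permutation p 0.0622).

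Over the 25 clusters, the genes whose log2 level was most like that of Pdyn, among 12283 genes compared, were DRD1A (Pearson r 0.904), Slc35d3 (0.852), Klhl13 (0.83), Synpr (0.826) and the secreted protein gene Reln (0.807). For Penk, 4 of the 5 most alike were Enox2 (0.872), the phosphodiesterase gene Pde7b (0.856), Meox2 (0.833) and Osgin1 (0.827). These are correlations over clusters that share libraries and differ in depth, and are given as a description.

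Receptors and processing enzymes of the opioid system were also measured in each class. Oprk1, the kappa receptor for dynorphins, was at 229.1 CPM in D1, 163.8 in D2 and 126.2 in eccentric neurons. Oprm1, the mu receptor, was at 139.4, 176.0 and 275.0 CPM in the same order, and at 257.8 CPM in cholinergic interneurons. Oprd1, the delta receptor, was at 3.24, 66.5 and 8.51 CPM, and highest in cholinergic interneurons at 228.3 CPM. Oprl1, the nociceptin receptor, was at 162.2 CPM in oligodendrocyte precursors against 28.4 in D1 and 25.7 in D2. The prohormone convertase gene Pcsk1 was at 33.6 CPM in D1, 65.3 in D2 and 341.4 in eccentric neurons, and its relative Pcsk2 at 370.1, 535.8 and 723.7 CPM. Mme, which encodes the enkephalin-degrading enzyme neprilysin, was at 135.8, 147.6 and 225.4 CPM. Of the other precursors, Pnoc was highest in other GABA neurons (118.0 CPM) and somatostatin interneurons (103.8 CPM), and Pomc had 3.24 CPM over all nuclei. These values compare classes for 1 gene at a time and do not compare levels between genes.

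Pairing type was compared with edgeR's quasi-likelihood test on counts summed per animal, with p-values adjusted over all genes tested in a class. Over all nuclei, neither gene was called between mates and peers, at a background of 0% of the 13729 genes tested. Pdyn was at 168.1 ± 43.7 CPM in mates (SD, n = 22) and 164.0 ± 48 CPM in peers (n = 18), a log2 difference of 0.04 (SE 0.13, adjusted p 0.948). Penk was at 1721.9 ± 620.9 CPM in mates and 1495.7 ± 453.2 CPM in peers, a log2 difference of 0.22 (SE 0.16, adjusted p 0.735). Within classes, 0 of 17 tests of the pair of genes were called, at a background of 0% of 79037 tests of a gene in a class. At an unadjusted p under 0.05 there were 4 of 17, against a background of 5.12%, and DESeq2 gave 0 and 3, against 4.69%. The count was 2 of 17 with blocks of label numbers as a covariate (background 4.66%), 2 of 19 with doublets kept (5.21%) and 2 of 18 at the finer clustering (5.16%). It was 5 of 16 with at least 50 nuclei per animal (5.19%) and 7 of 17 with counts summed over neighbouring label numbers (4.48%).

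In the classes where each gene was high, mates and peers overlapped. Pdyn in D1 ran from 452.2 through 601.0 to 838.7 CPM in female mates, 487.5 through 608.3 to 957.2 in female peers, 342.9 through 659.3 to 874.7 in male mates and 397.3 through 611.0 to 1126.1 in male peers. All 4 ranges overlapped and the log2 difference was −0.11 (SE 0.12, adjusted p 0.939, edgeR). Penk in D2 ran from 3135.1 through 5976.0 to 8457.3 CPM in female mates, 3625.4 through 5324.7 to 7773.6 in female peers, 3640.8 through 4873.6 to 7621.7 in male mates and 4393.4 through 5612.5 to 8170.9 in male peers. Here too the ranges overlapped, with a log2 difference of 0.02 (SE 0.11, adjusted p 0.999, edgeR). Penk in eccentric neurons was at 3451.7 ± 1276.2 CPM in mates and 3116.2 ± 1213.6 CPM in peers (log2 difference 0.15, SE 0.16, adjusted p 0.951, edgeR). Pdyn in eccentric neurons was at 98.9 ± 34.1 and 107.1 ± 39 CPM (log2 difference −0.12, SE 0.15, adjusted p 0.956, edgeR).

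**Figure D5:**
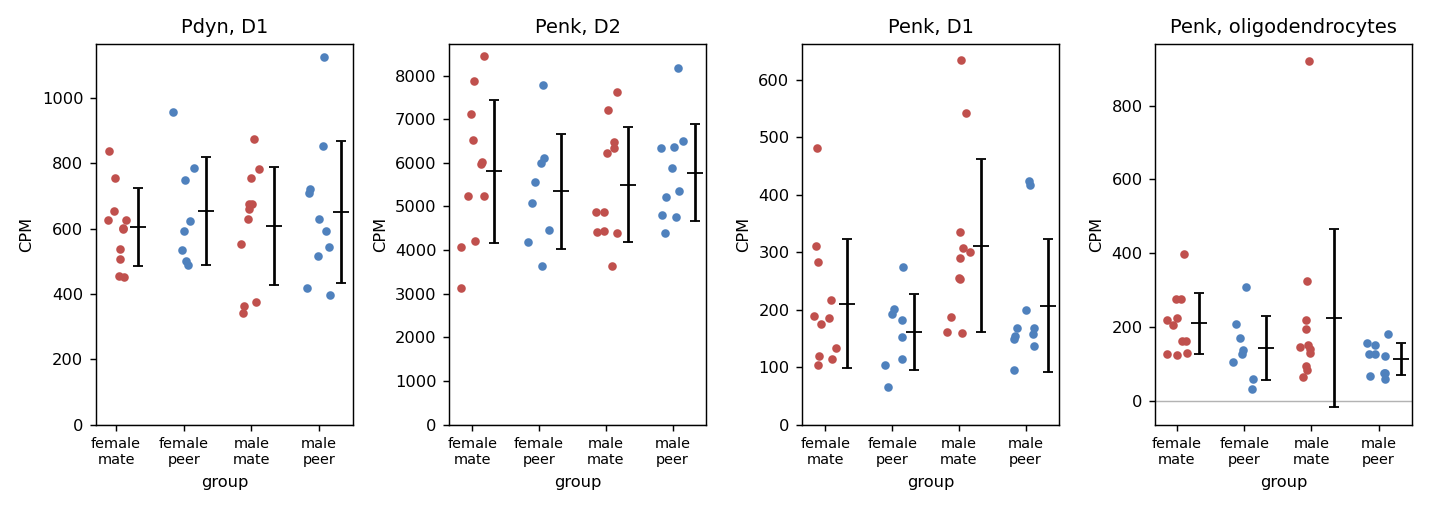
Level per animal (CPM, linear axes that differ between panels) by group of Pdyn in D1, Penk in D2, Penk in D1 and Penk in oligodendrocytes. Points are animals, mates in red and peers in blue, and bars give mean ± SD. The groups overlap in every panel, and the highest oligodendrocyte value is male mate 2 at 920.5 CPM.

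The 4 class tests at an unadjusted p under 0.05 were all of Penk, all higher in mates, and all in classes where Penk was low. In D1 neurons Penk ran from 104.5 through 185.0 to 481.8 CPM in female mates, 65.7 through 167.0 to 273.9 in female peers, 159.3 through 290.4 to 633.4 in male mates and 94.7 through 162.7 to 424.3 in male peers. The log2 difference was 0.46 (SE 0.20, p 0.0247, adjusted p 0.904, edgeR). It was 0.55 in oligodendrocytes (SE 0.20, p 0.00859, adjusted p 0.891), 0.41 in glutamate neurons (SE 0.17, p 0.023, adjusted p 0.851) and 0.40 in oligodendrocyte precursors (SE 0.20, p 0.0446, adjusted p 0.98), all by edgeR. At the finer clustering the glutamate value was −0.11. Of all genes tested, 5.17% had an unadjusted p under 0.05 in D1 neurons, 5.17% in oligodendrocytes, 5.66% in glutamate neurons and 4.75% in precursors. The D1 level minus the oligodendrocyte level of the same animal was 43.6 ± 125.4 CPM in mates and 59.1 ± 108.9 CPM in peers (difference −11.2 CPM averaged over the sexes, as for all permutation tests by pairing, so that it need not equal the difference of the means; permutation p 0.756, adjusted 0.941), and 7.48 CPM higher in mates without male mate 2.

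The D1 level was split by the Penk UMIs of its nuclei. Nuclei with 1 to 5 Penk UMIs contributed 119.5 ± 84.5 CPM to the D1 level in mates and 81.5 ± 26.3 in peers, and nuclei with at least 6 contributed 141.2 ± 88.9 and 104.7 ± 75.7 CPM. Male mate 2 was the highest animal of the first part, at 472.5 CPM, and without it the mates stood at 102.7 ± 31 CPM there and at 140.3 ± 91 CPM in the second. A Penk UMI was found in 10.6 ± 4.78% of thinned D1 nuclei in mates and 7.75 ± 2.81% in peers, a difference of 2.97 percentage points (permutation p 0.0168, 0.21 after adjustment over 24 tests). The share of D1 nuclei with Pdyn differed by −2.54 points (permutation p 0.31, adjusted 0.826) and the share of D2 nuclei with Penk by 1.14 points (permutation p 0.533, adjusted 0.941). Penk in oligodendrocytes was 88.2 CPM higher in mates (217.0 ± 176.9 against 127.2 ± 66 CPM, permutation p 0.0196, adjusted 0.21), and 53.4 CPM higher without male mate 2. None of the 24 tests, over both genes and over pairing, sex and their interaction, passed after adjustment, and 3 had an unadjusted permutation p under 0.05.

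Between females and males, neither gene was called over all nuclei by edgeR or DESeq2 (background 0.0219%), with log2 differences of 0.06 for Pdyn (SE 0.13, adjusted p 0.906, edgeR) and −0.06 for Penk (SE 0.16, adjusted p 0.933, edgeR) and neither at an unadjusted p under 0.05 (background 8.37%). Of 17 class tests, 0 were called by edgeR, at a background of 0.0253%, and 1 had an unadjusted p under 0.05, against a background of 5.25%. DESeq2 gave the same 2 counts. The 1 test was Penk in D1 neurons, at 189.2 ± 96.5 CPM in females (n = 19) and 261.5 ± 142.0 CPM in males (n = 21), a log2 difference of −0.45 (SE 0.20, p 0.027, adjusted p 0.823, edgeR). Without the low-count filter 2 of 22 class tests had an unadjusted p under 0.05, against a background of 5.23%. These 22 include tests whose counts were too low for the filter. Over the 22 tests the lowest p was 6.72e-05 and the lowest adjusted p 0.0931 (edgeR), so 0 were called. The D1 level minus the oligodendrocyte level was 7.3 ± 94.8 CPM in females and 89.7 ± 123.4 CPM in males (difference −81.3 CPM averaged over mates and peers, permutation p 0.0263, adjusted 0.21). Without male mate 2 this difference was −100 CPM and passed the adjustment (permutation p 0.00178, adjusted 0.0427), and with microglia in place of oligodendrocytes it was −33.3 CPM (adjusted permutation p 0.876). The pairing difference was not shown to depend on sex. Over all nuclei neither gene was called or had an unadjusted p under 0.05, against backgrounds of 0% and 1.92%. Of 17 class tests 0 were called, at a background of 0%, and 1 had an unadjusted p under 0.05, against a background of 2.81%, by either tool. This was Penk in oligodendrocyte precursors, 0.88 in females (SE 0.29) and −0.08 in males (SE 0.26), a difference of 0.96 (SE 0.39, p 0.0168, adjusted p 1, edgeR).

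Of 20 further opioid system genes, 19 were tested over all nuclei and 0 were called between mates and peers by edgeR or DESeq2, with 0 at an unadjusted p under 0.05 against a background of 7.32% of all genes. Their median log2 difference was 0.00, from −0.31 for the nociceptin precursor Pnoc (SE 0.17, adjusted p 0.687) to 0.14 for Oprd1 (SE 0.08, adjusted p 0.692), against a median of −0.006 over all genes. In D1 neurons 17 were tested, 0 were called and 1 had an unadjusted p under 0.05, against 5.17% of all genes. This was Kcnip3, which encodes a calcium-binding repressor known to act on Pdyn, at −0.20 (SE 0.09, p 0.0284, adjusted p 0.904, edgeR). In D2 neurons 18 were tested, 0 were called and 2 had an unadjusted p under 0.05 against 4.71% of all genes. These were Oprm1 at −0.23 (SE 0.10, p 0.0276, adjusted p 0.953) and Kcnip3 at −0.21 (SE 0.09, p 0.0311, adjusted p 0.953), both by edgeR. In other GABA neurons 10 were tested, 0 were called and 2 had an unadjusted p under 0.05 against 4.03% of all genes. These were Oprm1 at −0.36 (SE 0.17, p 0.0334, adjusted p 1) and Pcsk1n, a gene of precursor processing, at −0.25 (SE 0.12, p 0.0329, adjusted p 1), both by edgeR. In the 8 other classes tested, 0 of these genes were called and 0 had an unadjusted p under 0.05. Oprk1, the receptor for the dynorphins, differed by −0.08 in D1 (SE 0.08, adjusted p 0.929) and −0.06 in D2 (SE 0.09, adjusted p 0.976).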

How the data were processed

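The authors deposited raw UMI counts per gene and barcode for each library, written by Cell Ranger 3.1.0 per the submitters' processing notes and the file headers. The genome build and annotation are not given in the sources used here. Gene names come from the files, and 13314 of the 19130 genes carry a symbol found in the RefSeq table of MicOch1.0, which served for names only.

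Barcodes with under 500 UMIs (6375, all in the shallow library male mate 2) or over 5% mitochondrial UMIs (2148) were left out. Doublets were scored per library against simulated doublets and the highest scores removed at an assumed 0.8% per 1000 barcodes (7608 barcodes, 4.09%). Nuclei were clustered by the Leiden method on 2000 variable genes, 30 principal components and 15 neighbours at resolution 1 (leidenalg 0.10.2), with resolution 2 as the finer clustering and without correction between libraries. Pdyn and Penk were kept out of the variable genes, the doublet score and the 17 marker lists. A cluster took the name of its best list where at least 3 markers had a log2 fold of 1 or more. This scoring was set after the clusters were seen and before groups were compared, as was the rule that glial clusters with spiny neuron genes above other nuclei stay unnamed (2 clusters, 188 and 66 nuclei). Unnamed clusters held 10.8% of nuclei. Names mean nuclei with that marker profile.

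A level is UMIs of a gene per 1000000 UMIs of the class in 1 animal (CPM). Animals with under 20 nuclei of a class were left out of it, and classes with under 6 animals in any group were not tested. Counts summed per animal were tested with edgeR 4.0.16 (quasi-likelihood, TMM, edgeR's low-count filter, 1 mean per group, no covariate, since the labels give no batch) in R 4.3.3, with DESeq2 1.42.0 as an alternative. A gene was called at a Benjamini-Hochberg adjusted p under 0.05. Permutation tests were two-sided with 100000 resamples, permuting 1 factor within levels of the other, and pairing labels within each sex for the interaction. In permutation tests glia means oligodendrocytes. Scripts were tested on simulated data. Intervals are Wilson for shares and exact Poisson for levels and cover counting error only.

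Named genes are Pdyn and Penk, the opioid system and spiny neuron lists, class markers, and per gene the 5 most alike over clusters by Pearson r of log2(CPM + 5). Results of 1 gene that this rule names are not reported here. Nuclei with many Penk UMIs and the finer clusters were singled out after their values were seen. The members and lists were chosen with earlier results of these data known.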

Additional observations from a re-analysis of the deposited data

Results flagged for a closer look

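In 9 of 50 groups of 4 to 10 animals, the highest animal lay farther from its neighbour than expected for the group's range. Chance flags about 1 in 20 groups where values are normally distributed, and 9 of 50 is above that rate. Low counts need not be normally distributed and the groups share animals, so whether 9 exceeds chance was not tested. Groups with all 11 animals were not screened, so male mate 2, at 920.5 CPM of Penk in oligodendrocytes, could not be flagged. The 4 values in microglia rest on 23 to 75 nuclei. In microglia, Penk was 480.2 CPM in female peer 5 (21 UMIs in 75 nuclei, next animal 226.2), 1053.3 CPM in male mate 9 (35 UMIs in 53 nuclei, next 312.8) and 888.6 CPM in male peer 2 (20 UMIs in 31 nuclei, next 277.0), and Pdyn was 69.3 CPM in male peer 6 (1 UMI in 23 nuclei, next 31.8). Male mate 9 was also the highest of its group for Penk in astrocytes (347.4 CPM, 85 UMIs in 359 nuclei, next 228.2) and in oligodendrocyte precursors (363.7 CPM, 28 UMIs in 111 nuclei, next 191.9). In astrocytes of female peer 1 Penk was 577.2 CPM (88 UMIs in 136 nuclei, next 188.1). In somatostatin interneurons of male peer 5 Penk was 566.4 CPM (474 UMIs in 316 nuclei, next 220.5). In D2 neurons of male peer 1 Pdyn was 39.7 CPM (18 UMIs in 251 nuclei, next 24).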

How the results depend on the processing

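The labels name no partners and replicate numbers only follow the order of the labels, so no pairing entered the tests. Neighbouring label numbers share a pairing type in 20 of 20 pairs, of opposite sex in mates and of the same sex in peers, but the labels do not call them partners. They were used in alternatives chosen after seeing the data. With counts summed over those pairs (edgeR, 11 mate, 4 female peer and 5 male peer pairs), 0 of 17 class tests were called. At an unadjusted p under 0.05 there were 7 in place of 4, against 4.48% of all tests of a gene in a class. The lowest p was that of Penk in oligodendrocytes (0.61, SE 0.15, p 3.83e-04, adjusted p 0.979). Pdyn in somatostatin interneurons was among the 7 (0.44, SE 0.20, p 0.0409, adjusted p 0.927). In the main fit by edgeR that Pdyn difference was 0.45 (SE 0.25, p 0.0725, adjusted p 0.892). Among mates, with the pair as a block, 0 of 16 class tests by sex were called and 1 had an unadjusted p under 0.05 (Penk in D1 neurons, −0.58, adjusted p 0.982), as without the block (−0.54, adjusted p 0.999). The count by pairing at an unadjusted p under 0.05 was 2 of 17 with blocks of label numbers as a covariate (4.66%), 2 of 19 with doublets kept (5.21%) and 2 of 18 at the finer clustering (5.16%), and 5 of 16 with at least 50 nuclei per animal (5.19%). Of the main values recomputed, 138 were kept, 6 reversed direction, 3 moved, 1 became stronger and 1 weaker. A test was kept where its direction and side of the threshold stayed, and a count of calls where it was the same. A median level was kept where it shifted by less than its SD over animals. The lower Penk median of the D1 class with Pdyn and Penk allowed among the variable genes counts as kept by that rule. The exceptions, with those among the other values, are given here. In each the cause was not tested. With blocks of 10 label numbers as a covariate, the Pdyn difference between mates and peers in D1 neurons was 0.03 (log2). With Pdyn and Penk allowed among the variable genes, the Pdyn difference in D2 neurons was −0.01. At the finer clustering the Penk difference in glutamate neurons was −0.11. Thinned to 2000 UMIs, the share of D2 nuclei with Pdyn differed by −0.184 points. With microglia in place of oligodendrocytes as the reference, the Pdyn level there differed by −3 CPM and the Penk level of D1 neurons minus it by 16.9 CPM. Without male mate 2 the Penk level of D1 neurons minus that of oligodendrocytes differed by 7.48 CPM by pairing and −100 CPM by sex, the count of the 24 permutation tests that passed was 1 in place of 0, r of Penk in oligodendrocytes with its all-nuclei level was 0.59, and r of Penk in D2 with Pdyn in D1 was 0.322. With doublets kept, the median oligodendrocyte levels were 524.7 CPM for Penk and 35.9 CPM for Pdyn. With the mixed clusters counted in, an alternative chosen after seeing the data, Penk was 199.4 CPM in oligodendrocytes and 193.2 CPM in microglia.

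The Penk difference by pairing in D1 neurons stayed between 0.34 and 0.48 over 9 alternatives and was not called in any. Without the low-count filter, calls over all genes in classes went from 0 to 18 by pairing, 20 to 37 by sex and 0 to 5 for their interaction, none of them Pdyn or Penk, and with DESeq2 the calls by sex over all nuclei went from 3 to 5. Oligodendrocytes held 119 Pdyn UMIs in all 40 animals, which limits the precision of their level.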
